A study of Mus musculus with 4 samples.

Results

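Ucp1 and 9 further genes of the thermogenic program of brown adipose tissue (BAT) were followed, namely Ucp3, Dio2, Cidea, Ppargc1a, Prdm16, Adrb3, Elovl3, Ebf2 and Zic1. They were taken by name, as every probe whose accession belongs to 1 of the 10 genes, which gave 14 of the 55681 distinct probes on the array. All 14 probes were well above background on all 4 arrays and 0 were saturated. All 14 were therefore among the 24988 probes, with 12800 named genes, that entered the test, and the filter on dim probes left out none of the 10 genes.

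BAT came from male C57/BL6N mice at 8 weeks of age that carried the maP2::Fv2E-PERK transgene (Tg mice). Fv2E-PERK joins the eIF2α kinase part of PERK to a domain that the small molecule AP20187 (AP) brings together, so that AP switches the kinase on, and eIF2α phosphorylation then starts the integrated stress response (ISR). The mouse aP2 (Fabp4) promoter drives it in white and brown fat and is generally known to be active in macrophages too. Vehicle was given intraperitoneally to 2 mice and AP to 2 mice, and BAT was taken 12 h later. The dose of AP was written as 1 ng/g in the sample labels and as 0.05 mg/kg in the legend of the experiment. All 4 mice carried the transgene, so an action of AP itself cannot be told apart from that of the activated kinase. The comparison asked which BAT transcripts differ after the kinase is switched on.

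Brown adipocytes burn fat in mitochondria whose proton gradient is short-circuited by UCP1, so that energy leaves as heat. Noradrenaline from sympathetic nerves acts on the β3-adrenergic receptor and raises cAMP, which releases fatty acids and turns on the thermogenic genes, with the coactivator PGC-1α and locally made thyroid hormone as amplifiers. The identity of the cells is kept by transcription regulators such as PRDM16 and EBF2.

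cAMP acts on many promoters through the cAMP response element, TGACGTCA, whose core is TGACG. The 250 bases before the RefSeq start were given for 6 of the 10 genes, Ucp1, Ucp3, Dio2, Ppargc1a, Prdm16 and Zic1 (RefSeq, GRCm38.p6). The core, searched on both strands, was in 3 of these 6, and only those 3 are printed. The windows of Ucp3, Prdm16 and Zic1 did not hold it. The share of all 32851 RefSeq windows of the same length that held the core was 17.8%. The whole element was in 1 of the 6, Dio2, and in 1.55% of all windows. Capitals mark the core on either strand, and in Dio2 both strands of the core overlap within the whole element. Ucp1 lies at chr8:83290098-83290347 (plus strand), Dio2 at chr12:90739039-90739288 (minus strand) and Ppargc1a at chr5:51567726-51567975 (minus strand). The first marked base was 147 bases before the start of Ucp1, 95 before that of Dio2 and 49 before that of Ppargc1a. Binding was not measured.
Ucp1: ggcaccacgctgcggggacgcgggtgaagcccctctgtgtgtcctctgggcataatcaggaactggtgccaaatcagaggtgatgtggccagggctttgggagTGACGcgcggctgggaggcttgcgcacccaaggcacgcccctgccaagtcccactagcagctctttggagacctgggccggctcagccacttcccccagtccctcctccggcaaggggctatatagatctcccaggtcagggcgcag
Dio2: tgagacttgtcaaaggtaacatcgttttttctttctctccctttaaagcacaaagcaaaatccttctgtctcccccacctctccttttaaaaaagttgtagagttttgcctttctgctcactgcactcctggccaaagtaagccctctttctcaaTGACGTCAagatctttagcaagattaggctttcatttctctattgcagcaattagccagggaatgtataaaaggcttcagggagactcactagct
Ppargc1a: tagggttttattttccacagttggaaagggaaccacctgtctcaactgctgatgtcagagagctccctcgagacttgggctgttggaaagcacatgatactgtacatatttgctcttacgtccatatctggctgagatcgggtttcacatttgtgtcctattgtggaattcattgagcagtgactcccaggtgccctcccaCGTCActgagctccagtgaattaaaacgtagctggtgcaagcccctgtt

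Each value is given as log2 of the processed signal minus log2 of the 75th percentile of its array, so 0 is the 75th percentile of that array and 1 unit is a 2-fold difference. The 75th percentile was 118.5 to 158.7, highest in vehicle mouse 2, and 46.4 to 49.0% of spots were well above background. The ISR genes Trib3, at 2.78 and 2.33 with vehicle and at 6.26 and 8.01 with AP, and Ddit3, at 2.18 and 1.86 and at 3.03 and 4.22, were higher in both AP mice. The adjusted p was 0.800 for either gene (limma, over all tested probes). The 7 brown fat markers Ucp1, Cidea, Cox7a1, Cox8b, Cpt1b, Zic1 and Lhx8 were well above background on all 4 arrays. Skeletal muscle markers set the arrays apart, since all 14 were lowest in vehicle mouse 1 and highest in vehicle mouse 2. The shares of all genes that were highest or lowest in a given mouse were not counted, here or below. All 4 arrays shared 1 slide, with the groups at different places on it, so place and treatment cannot be told apart. The labels do not say that the mice are of separate litters, and p values measure the spread between these mice only.

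The 10 genes differed in both directions between the groups. The difference between the means of the AP and the vehicle mice was above 0 for 5 genes and below 0 for 5, with a median of -0.02 on the log2 scale against 0.01 over the 12800 genes. Both AP mice were below both vehicle mice for 2 of the 10 genes, Adrb3 and Ucp3, which is near the 17.3% of all genes with that order. Both were above for 1 gene, Zic1, near the 20.1% of all genes with that order. The groups overlapped for the other 7. By limma, 0 of the 10 genes had an adjusted p under 0.05, as had 0% of all genes, and the smallest adjusted p of any probe was 0.800. At an unadjusted p under 0.05, limma gave 1 of the 10 genes, Adrb3, against 6.03% of all genes.

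**Figure D1:**
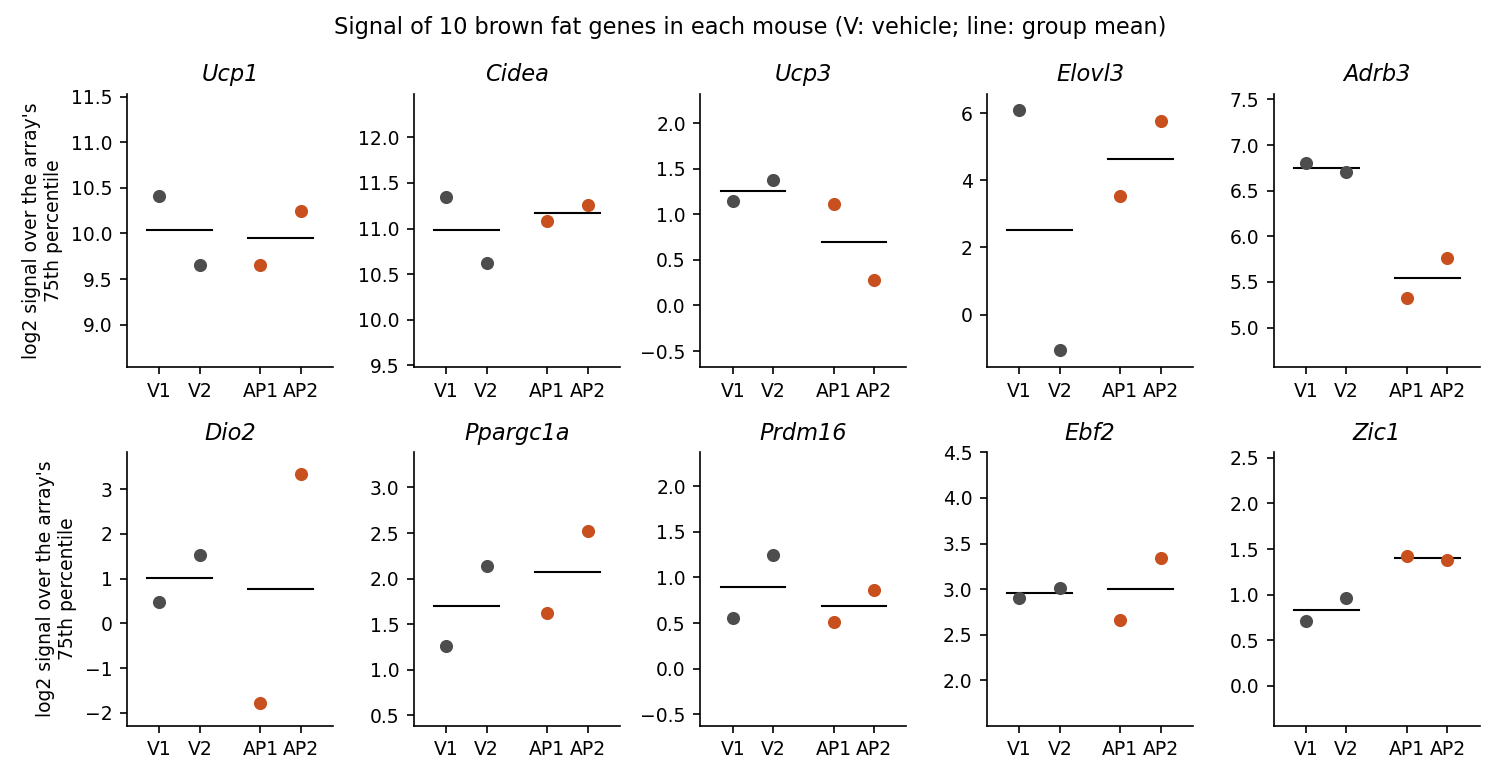
Log2 signal over the 75th percentile of the array for each of the 10 genes in vehicle mice 1 and 2 (V1, V2, grey) and AP mice 1 and 2 (AP1, AP2, orange), with a line at each group mean and a scale of its own for each gene. Adrb3 was near 6.75 in both vehicle mice and at 5.33 and 5.77 in the AP mice, while Elovl3 and Dio2 spread widely within a group.

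Ucp1, the uncoupling protein itself, was at 10.41 and 9.66 in the vehicle mice and at 9.66 and 10.25 in the AP mice. Each group held 1 high and 1 low mouse, and the AP mice lay within the range of the vehicle mice. The difference was -0.08 (SE 0.37), a ratio of 0.946, with a 95% confidence interval from -1.07 to 0.91 (limma, adjusted p = 0.974). With 2 mice a group this interval, not adjusted for the number of probes, holds changes of about 2-fold either way. A smaller change was not detectable, and larger changes could miss the adjusted threshold too. Trib3, 23.8-fold higher with AP, had a limma adjusted p of 0.800. The sign turned when AP mouse 1 (0.22) or vehicle mouse 1 (0.30) was left out.

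Ucp3, a relative of Ucp1 that is abundant in muscle as well as in BAT, was at 1.15 and 1.37 with vehicle and at 1.11 and 0.28 with AP. AP mouse 1 lay just below vehicle mouse 1, and AP mouse 2 was the low one. The difference was -0.56 (SE 0.35, 95% confidence interval -1.49 to 0.36, limma adjusted p = 0.802). It was -0.98 without AP mouse 1 and -0.15 without AP mouse 2, so most of it rested on AP mouse 2. The second Ucp3 probe did not keep this order, at 0.74 and 0.79 with vehicle and at 1.32 and -0.63 with AP. AP mouse 2 was the lowest by both probes. The summed signal of the 14 muscle markers, in units of the 75th percentile, was 62.4 and 1180 with vehicle and 739 and 411 with AP, and its part in the Ucp3 values was not tested.

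Cidea, a lipid droplet protein of brown adipocytes, was at 11.34 and 10.62 in the vehicle mice and at 11.08 and 11.25 in the AP mice. The AP mice lay between the vehicle mice. The difference was 0.19 (SE 0.32, 95% confidence interval -0.65 to 1.03, limma adjusted p = 0.911), and it was -0.18 without vehicle mouse 2.

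Elovl3, an elongase that makes very long chain fatty acids in BAT and is known to rise strongly in the cold, was at 6.08 and -1.07 in the vehicle mice and at 3.52 and 5.76 in the AP mice. The vehicle mice differed by 7.15 on the log2 scale, or 142-fold, and both AP mice lay between them. Vehicle mouse 2 was the low one, with a processed signal of 75.6 against 8066 in vehicle mouse 1, and the probe was still well above background there. Elovl3 was among the 5 of 24988 probes farthest apart between the vehicle mice. The other named probes of these 5, chosen after their values were seen, were Myh7, Myl2 and Tnni1 of slow muscle, and all 3 ran the other way, with vehicle mouse 1 low. The AP minus vehicle difference of Elovl3 was 2.13 with an SE of 2.49 (95% confidence interval -4.46 to 8.73, limma adjusted p = 0.870). It was 5.71 without vehicle mouse 1 and -1.44 without vehicle mouse 2, so its sign rested on vehicle mouse 2. The summed muscle and leukocyte markers were highest in vehicle mouse 2, and their part in the low Elovl3 value was not tested. Elovl6, another fatty acid elongase, was likewise lowest in vehicle mouse 2 and highest in vehicle mouse 1, at 7.96 and 5.75 with vehicle and at 6.06 and 6.92 with AP. It too was singled out after its values were seen. Elovl6 was 1 of 24 other brown-enriched genes, of which 13 were lowest in vehicle mouse 2 and 2 in vehicle mouse 1. Of these 24 genes, 10 were highest in vehicle mouse 1 and 5 in vehicle mouse 2. The shares of all genes with these orders were not counted, so these counts are not shown to be particular to brown-enriched genes. Cidea was also highest in vehicle mouse 1 and lowest in vehicle mouse 2. Ucp1 was too, though vehicle mouse 2 was level with AP mouse 1 at 9.66. By processed signal before scaling, Elovl3 and Cidea were still lowest in vehicle mouse 2, whose array had the highest 75th percentile. Ucp1 was then lowest in AP mouse 1, at 103094 against 128042 in vehicle mouse 2.

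Adrb3, the β3-adrenergic receptor through which noradrenaline acts on adipocytes, was the member whose groups stood farthest apart for their spread. It was at 6.80 and 6.70 in the vehicle mice and at 5.33 and 5.77 in the AP mice. Both AP mice were below both vehicle mice, and the mice within a group differed by 0.10 and 0.44. The difference was -1.20 (SE 0.25, 95% confidence interval -1.86 to -0.55), or 2.31-fold lower. A second probe, with its own level, was at 3.06 and 2.95 with vehicle and at 1.54 and 1.88 with AP. It differed by -1.29 (SE 0.23, 95% confidence interval -1.90 to -0.68), or 2.45-fold lower.

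These differences did not pass the adjusted threshold. By limma the unadjusted p was 0.00589 for the first Adrb3 probe, rank 111 of 24988, and 0.00341 for the second, rank 62, and the adjusted p was 0.800 for both. The exact permutation test (two-sided) gave 0.333 for either probe, which is the smallest p that 2 against 2 mice allow. The first probe stayed between -1.42 and -0.99 whichever mouse was left out, and between -1.37 and -1.12 under the settings that used every mouse. Of all 12800 genes, 185 (1.45%) had both AP mice below both vehicle mice and were at least 2-fold lower in the mean, Adrb3 included. In bulk tissue, fewer adipocytes and less receptor mRNA per adipocyte cannot be told apart. The general adipocyte markers summed to 3187 and 2394 with vehicle and to 2568 and 3112 with AP, which overlapped.

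Dio2 encodes the deiodinase that turns thyroxine into active thyroid hormone inside brown adipocytes and is a classic target of cAMP. It was at 0.49 and 1.53 in the vehicle mice and at -1.78 and 3.33 in the AP mice. The AP mice were the lowest and the highest of the 4, 5.12 apart on the log2 scale, or 34.7-fold. Dio2 was among the 5 of 24988 probes farthest apart between the AP mice. The other named probes of these 5, again chosen after their values were seen, were Prr32, Syt10 and Slc2a5. The vehicle mice differed by 1.04. The AP minus vehicle difference was -0.23 (SE 1.74, 95% confidence interval -4.84 to 4.38, limma adjusted p = 0.984). It was 2.32 without AP mouse 1 and -2.79 without AP mouse 2, so the mean of the group describes neither mouse. The ISR gene Trib3 was also higher in AP mouse 2 than in AP mouse 1, at 8.01 and 6.26, and a tie to Dio2 was not tested.

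**Figure D2:**
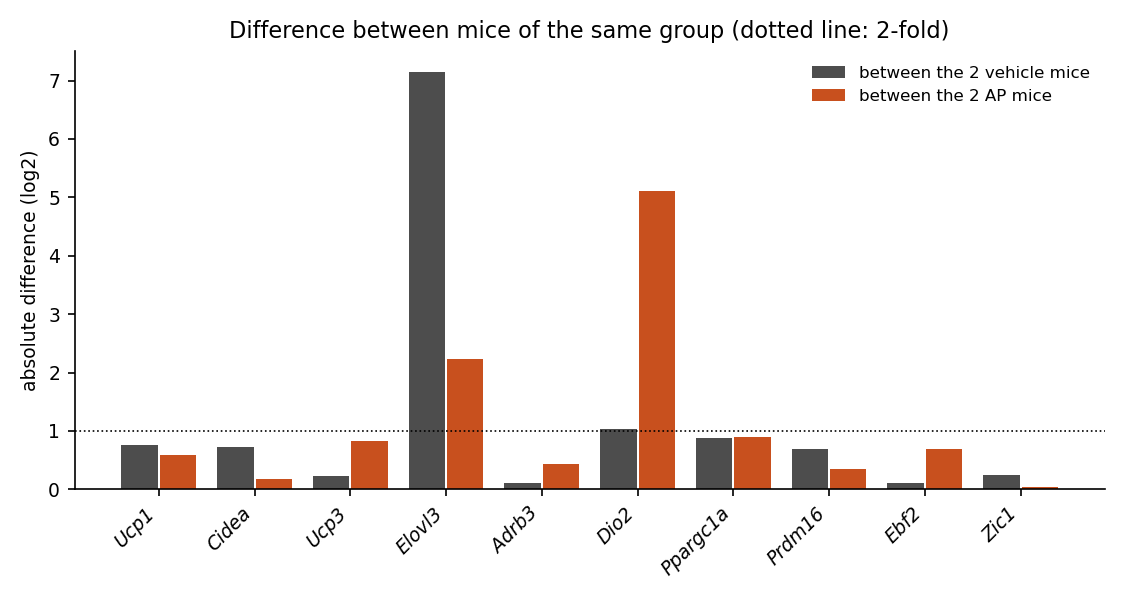
Absolute difference on the log2 scale between the 2 vehicle mice (grey bars) and between the 2 AP mice (orange bars) for each of the 10 genes, with a dotted line at 2-fold. Elovl3 reached 7.15 between the vehicle mice and Dio2 5.12 between the AP mice, and the other 8 genes, each drawn by its probe with the highest mean signal, stayed under the line in both groups.

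With each gene taken by its probe with the highest mean signal, 2 of the 10 genes differed by at least 2-fold between mice of the same group. Elovl3 and Dio2 passed 2-fold in the vehicle pair, as did 10.2% of all genes, and the same genes passed it in the AP pair, as did 6.93% of all genes. The other 8 genes, Ucp1 and Cidea among them, differed by at most 0.89 on the log2 scale within either pair by that probe. The second Ucp3 probe, however, was 1.95 apart between the AP mice, or 3.86-fold, and the second Ppargc1a probe 0.99 apart between the vehicle mice.

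Ppargc1a encodes PGC-1α, the coactivator that links cAMP to mitochondrial and thermogenic genes. It was at 1.26 and 2.14 with vehicle and at 1.63 and 2.52 with AP. In each group mouse 2 was the higher, and the groups overlapped. The difference was 0.37 (SE 0.46, 95% confidence interval -0.85 to 1.60, limma adjusted p = 0.877). A second probe, at -2.13 and -1.14 with vehicle and at -1.47 and -0.70 with AP, put the mice in the same order and differed by 0.55. The sign of the first probe turned without vehicle mouse 1 (-0.07) and without AP mouse 2 (-0.07).

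Prdm16, a zinc finger coregulator that holds cells in the brown lineage, was at 0.56 and 1.24 with vehicle and at 0.51 and 0.86 with AP. AP mouse 2 lay between the vehicle mice and AP mouse 1 just below them. The difference was -0.22 (SE 0.32, 95% confidence interval -1.07 to 0.64, limma adjusted p = 0.897), and 0.12 without vehicle mouse 2.

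Ebf2, the early B cell factor that opens brown-specific regulatory regions, was at 2.90 and 3.01 with vehicle and at 2.66 and 3.35 with AP. The vehicle mice lay between the AP mice. The difference was 0.05 (SE 0.30, 95% confidence interval -0.75 to 0.85, limma adjusted p = 0.982), and its sign turned under several settings.

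Zic1, a zinc finger factor used as a marker of classic brown fat, was at 0.71 and 0.96 with vehicle and at 1.42 and 1.38 with AP. Both AP mice were above both vehicle mice, and the AP mice differed by 0.04. The difference was 0.57 (SE 0.21), or 1.48-fold, with a 95% confidence interval from -0.0024 to 1.14 (limma, unadjusted p = 0.0506, adjusted p = 0.800). The second Zic1 probe did not share it. That probe was at -2.26 and -2.08 with vehicle and at -2.38 and -2.20 with AP, with a difference of -0.12 (95% confidence interval -0.69 to 0.45), so the 2 probes of Zic1 disagreed in sign.

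**Figure D3:**
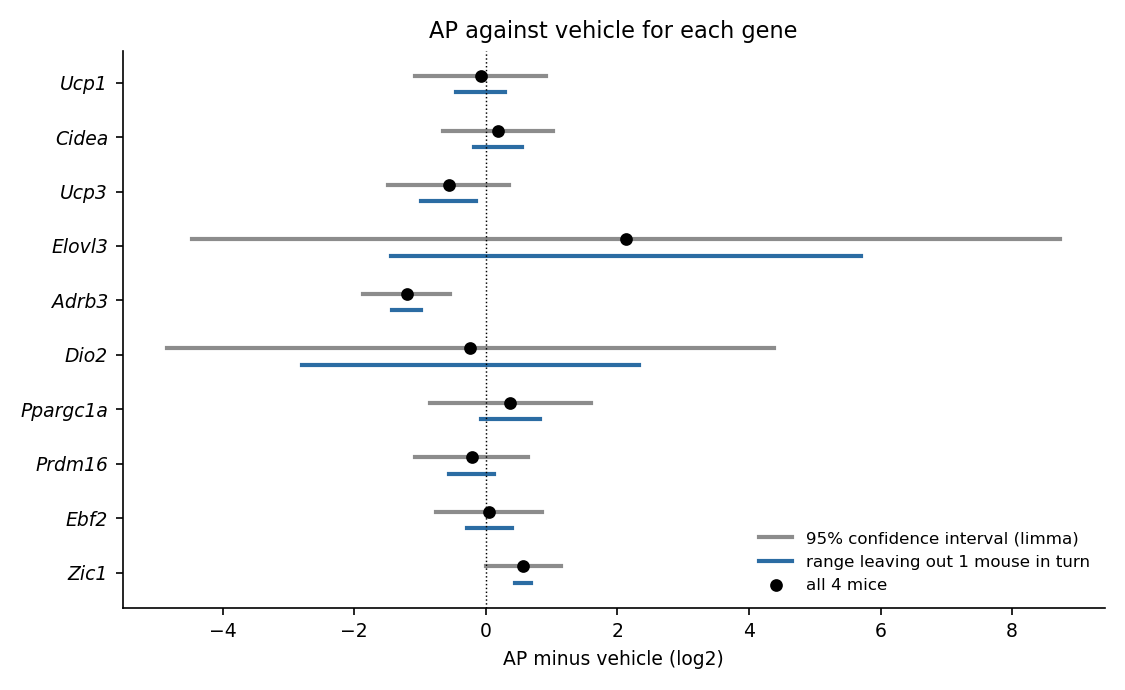
AP minus vehicle on the log2 scale for each of the 10 genes (black points, 2 mice a group), with the 95% confidence interval from limma (grey) and the range of the difference when each mouse was left out in turn (blue). Adrb3 at -1.20 was the member whose interval, not adjusted for the number of probes, lay wholly on 1 side of 0. The leave-out ranges of Adrb3, Ucp3 and Zic1 kept their sign for the 1 probe drawn for each gene, that with the highest mean signal. By that probe their groups did not overlap, so leaving out 1 mouse could not turn the sign.

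The pattern of Ucp1 over the 4 mice was compared with that of 12145 other named genes that were well above background on every array, by the root mean square difference of log2 values centred on each gene's mean. The median over those genes was 0.391. The smallest differences were those of Lzic (0.00975), Zwint (0.0291), Aqp2 (0.0306), Ppp2r5a (0.0312) and Itpr1 (0.0364). All of these values come from the same 4 arrays. Cidea stood at rank 820, with a difference of 0.199, and Ebf2 at rank 3541, with 0.312. The other 7 members ranked between 9193 and 12145, with differences of 0.520 to 2.58, all above the median of the genes compared. Elovl3 had the largest difference of all the genes compared, at 2.58, but the measure also grows with the size of the differences between mice. Elovl3 put the mice in the same order as Ucp1, highest in vehicle mouse 1 and lowest in vehicle mouse 2. For Ucp1, vehicle mouse 2 and AP mouse 1 were both at 9.66.

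The other genes of the thermogenic pathway were counted in lists by role, and 0 genes of these lists had an adjusted p under 0.05 by limma. Over all genes, 20.1% were higher in both AP mice, 17.3% were lower in both and 6.03% had an unadjusted p under 0.05. Of 18 measured regulators that act for the brown program, 5 were higher in both AP mice and 3 lower in both, and 2 had an unadjusted limma p under 0.05, with a median difference of 0.16 against 0.01 over all genes. These counts were near the shares of all genes. Those 2 were Ebf3 (-0.86) and Ehmt1 (1.02), a histone methyltransferase that works with PRDM16, whose other probe differed by -0.13. Pparg, the master regulator of adipocytes, was at 6.77 and 6.82 with vehicle and at 7.01 and 7.05 with AP, a difference of 0.24. Irf4, a factor that works with PGC-1α, was at -0.71 and -1.44 with vehicle and at 0.56 and -0.50 with AP. Rxra, the partner of nuclear receptors, differed by 0.44 without overlap, and by 0.35 by its other probe. Cebpb (0.15) and Ppargc1b (-0.01) overlapped between the groups.

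Of 8 regulators that oppose the program, 4 were higher in both AP mice, against 20.1% of all genes, and 1 was lower, against 17.3%, with a median of 0.34. Tle3, a corepressor that competes with PRDM16, was at 3.17 and 3.12 with vehicle and at 3.82 and 3.85 with AP, a difference of 0.69 (limma, unadjusted p = 0.0207, adjusted p = 0.800). Nrip1, the corepressor RIP140, differed by 0.38 and Nr1h3, the liver X receptor α, by 0.32 and 0.40 by its 2 probes. Tcf7l2, a mediator of Wnt signals, differed by -0.11 without overlap and by -0.32 by its other probe.

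Around the receptor, 20 genes of adrenergic and cAMP signaling were measured, of which 4 were higher in both AP mice and 3 lower, with a median of 0.05, near the 20.1% and 17.3% of all genes. Adrb1, the β1-adrenergic receptor, was at 2.63 and 1.78 with vehicle and at 0.62 and 1.81 with AP. Its groups overlapped, by AP mouse 2, and it differed by -0.99 (SE 0.52, 95% confidence interval -2.37 to 0.40). Its other probe differed by -0.24. Pde3b, which breaks down cAMP, differed by 0.63 (limma, unadjusted p = 0.0386, adjusted p = 0.800) and Adra1a, an α1 receptor, by 0.64. Of the p38 kinase genes in the list, Map2k6 (-0.80) and Mapk14 (-0.41, and -0.59 by its other probe) were lower in both AP mice, while Map2k3 overlapped (-0.16). Atf2, a factor that p38 phosphorylates, was higher in both AP mice (0.27), and its 4 probes differed by -0.30 to 0.27. Map2k3 and Atf2 were added after their values were seen. Prkaca, a catalytic subunit of protein kinase A, differed by -0.18. Of the sympathetic nerve markers 2 of 6 were measured, and Th, tyrosine hydroxylase, was at 2.42 and 1.72 with vehicle and at 1.22 and 2.06 with AP.

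Of 24 other brown-enriched genes, 5 were higher in both AP mice and 5 lower, with a median of 0.10, near the 20.1% and 17.3% of all genes. The respiratory chain genes Cox7a1 (0.18) and Cox8b (0.09) and the carnitine transferase Cpt1b (0.03, and -0.24 by its other probe) overlapped between the groups. Ntrk3, the neurotrophin-3 receptor, was at 3.76 and 4.89 with vehicle and at 2.42 and 3.26 with AP, and its 4 probes differed by -1.49 to -1.05. Ucp2, another relative of Ucp1 that leukocytes also express, was at 0.31 and 1.31 with vehicle and at -0.20 and -0.30 with AP, a difference of -1.06. The summed signal of 9 measured leukocyte markers was 58.1 and 131 with vehicle and 55.3 and 55.7 with AP, and its part in the Ucp2 values was not tested. Slc27a2, which activates very long chain fatty acids, was at 4.43 and 3.77 with vehicle and at 6.30 and 5.08 with AP, a difference of 1.59. Kng2 differed by -0.95. Ntrk3, Ucp2 and Slc27a2 were the 3 of 24 genes of this list with an unadjusted limma p under 0.05, against 6.03% of all genes.

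Of 12 genes of heat cycles that do not use UCP1, 0 were higher in both AP mice, against 20.1% of all genes, and 3 were lower, against 17.3%, with a median of 0.13. Of these 12 genes, 8 were highest in vehicle mouse 2 and 6 were lowest in vehicle mouse 1. Ckb, Ckmt2, Atp2a1, Ryr1 and Sln had both, as had all 14 muscle markers. The part of muscle in these counts and in the median was not tested. Gamt, the last enzyme of creatine synthesis, was at 2.54 and 3.77 with vehicle and at 1.61 and 1.92 with AP, a difference of -1.39 (limma, unadjusted p = 0.0340, adjusted p = 0.800), and its other probe differed by -1.31. Pm20d1, which makes uncoupling N-acyl amino acids, differed by -0.48 and Ckmt1, a mitochondrial creatine kinase, by -0.34. Of 7 measured markers of beige adipocytes, 2 were higher in both AP mice, against 20.1% of all genes, and 0 were lower, with a median of 0.20. They were Tnfrsf9 (CD137), which differed by 1.17, and Cited1, which differed by 0.82. Cited1 was at -1.22 and -2.75 with vehicle and at -1.21 and -1.11 with AP, and its difference was 0.06 without vehicle mouse 2.

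**Figure D4:**
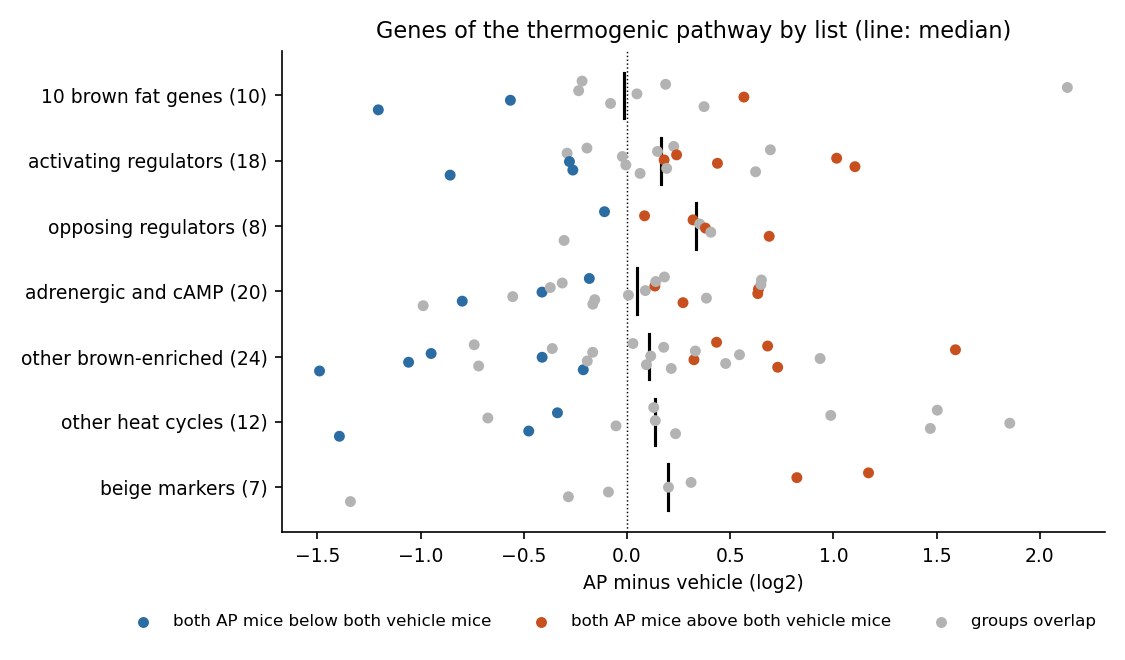
AP minus vehicle on the log2 scale for each measured gene (1 point a gene) of the 10 brown fat genes and 6 lists of related genes, with the number measured in parentheses and a line at each list's median. Blue points had both AP mice below both vehicle mice, orange points both above, and grey points overlapped. Medians lay between -0.02 and 0.34.

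Markers of other cells were measured on the same arrays. Muscle markers differed by 0.84 for Ckm and 1.27 for Myh4, with overlap, and 0 of 14 kept the groups apart. Leukocyte markers were measured for 9 of 15 genes and 8 of these were highest in vehicle mouse 2, Cd74 at 4.96 there against 2.95 to 3.35 elsewhere. Itgam, a marker of myeloid cells, was the other one, with a difference of -0.88 and both AP mice below both vehicle mice, and its 3 probes differed by -0.88 to -0.14. White fat markers were measured for 4 of 9 genes, with sums of 47.8 and 55.6 with vehicle and 34.4 and 38.2 with AP. Lep, leptin, was at 0.04 and 1.45 with vehicle and at -0.63 in both AP mice, and Retn, resistin, differed by -0.38. Hoxc8, Hoxc10, Tcf21, Wt1 and Upk3b of this list were too dim to be tested. Endothelial markers were measured for 8 of 8, with sums of 94.2 and 126 with vehicle and 91.7 and 122 with AP, and Emcn differed by -0.24. Of 5 general adipocyte markers, Adipoq, adiponectin, differed by -0.30 and Plin1, a lipid droplet coat protein, by 0.33, both without overlap. The Plin1 groups were barely apart, at 7.396 and 7.088 with vehicle and at 7.397 and 7.738 with AP. The white fat sum was lower in both AP mice, as was Adrb3, which white adipocytes also express. Most of that sum was Retn, at 5.50 and 5.40 with vehicle and at 4.98 and 5.16 with AP. Nnat and Slc7a10 of the same list overlapped between the groups. The part of white adipocytes in the Adrb3 values was not tested.

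**Figure D5:**
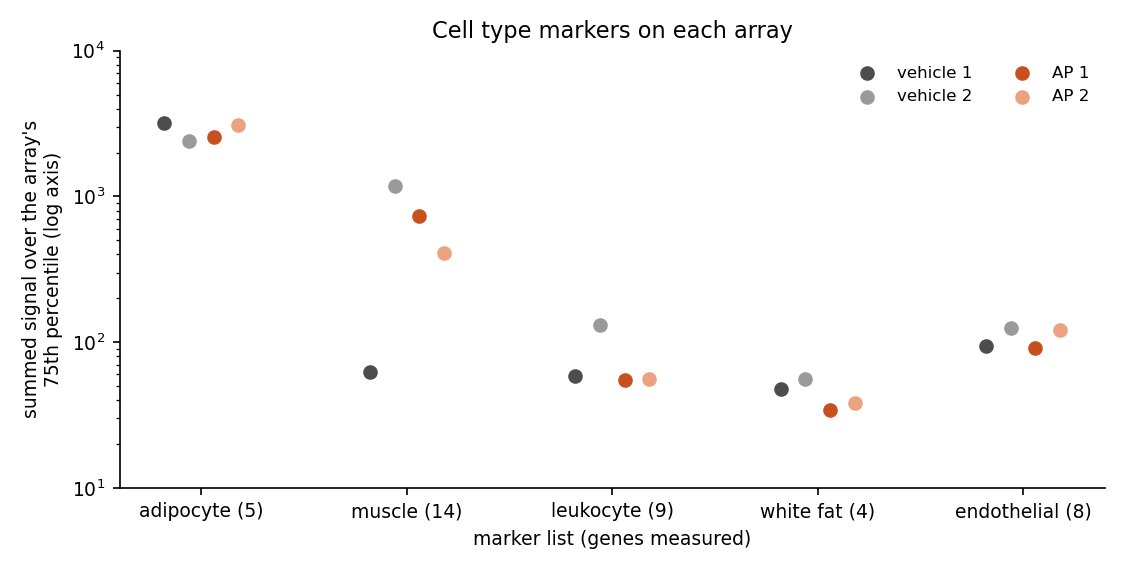
Summed signal in units of the 75th percentile of the array (log axis) of 5 marker lists on each of the 4 arrays, with the number of measured genes in parentheses. Muscle markers ranged from 62.4 in vehicle mouse 1 to 1180 in vehicle mouse 2, with the AP mice between them, and general adipocyte markers from 2394 to 3187.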

How the data were processed

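Total RNA of BAT from each mouse was labeled with Cy3 and hybridized to its own 1-color Agilent mouse array. The authors extracted the scans with Agilent Feature Extraction 10.7.1.1 and deposited the background-subtracted intensity of each spot, on a linear scale and with no scaling of 1 array to another. A second deposited table held log2 values for these arrays, with medians of -0.28, -0.16, -0.44 and -0.29 (vehicle 1 and 2, AP 1 and 2), whose centring and scaling are not given in the sources used here. Its differences between arrays correlated with those of the intensities (lowest Pearson's r = 0.9998 over 24883 probes), so its direction is known, and it served as an alternative.

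From the intensities, the log2 processed signal was set against the 75th percentile of its array, control and outlier spots were dropped, and spots of a probe were averaged. Probes were named by accession through a RefSeq table of GRCm38.p6, used for names only, since the array design was annotated on another build, which gave 26576 probes of 20141 genes a symbol. Of several probes of a gene, the one with the highest mean signal was taken for counts, medians and figures, and the other probes of the 10 genes are described beside it. A probe entered the test if both mice of 1 group or the other had it well above background. Groups were compared by limma 3.58.1 (lmFit, eBayes, no block) under R 4.3.3, with Benjamini-Hochberg adjustment over all 24988 probes and a threshold of 0.05. The methods of the study name unpaired two-tailed t tests in general and the Subio Platform for the arrays. The fit was tested on simulated data. Precision is limited by the number of arrays, 2 a group. The vehicle arrays correlated at 0.972 and the AP arrays at 0.981 (Pearson's r over the tested probes).

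The 10 genes and the lists of related genes were chosen with earlier results of these data known, so the lists are given as counts and medians. All probes of the 10 genes are named, with up to 4 genes of each list that had the largest difference without overlap, the lists' defining genes and the 5 genes closest to Ucp1. Alternatives were another background correction, other scalings and filters, a variance trend, the methods' t test, the authors' table, the mean of a gene's probes, a block for the replicate number and leaving out each mouse. Promoter windows were read from a RefSeq table.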

Additional observations from a re-analysis of the deposited data

How the results depend on the processing

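Under each of the 14 alternatives that tested all probes, 0 probes had an adjusted p under 0.05. The mean of a gene's probes was fitted over 12800 genes and is given for the 10 genes alone. Probes with an unadjusted p under 0.05 numbered 1514, between 1003 (without AP mouse 1) and 2610 (no filter on dim probes), and 1478 by the methods' t test. The authors' table shifted the median of all probes to -0.17, against -0.01. The median difference of the 10 genes was -0.02, ranged from -0.18 to 0.09 with all mice kept and from -0.22 to 0.33 with each mouse left out, the highest without AP mouse 1. Of 150 values of single genes, 15 turned sign, and Adrb3, Ucp3 and Zic1 had none of these, with 1 probe a gene. The t test, the filters, the variance trend and the replicate blocks do not alter a difference, so their values could not turn. The mean of a gene's probes could not turn a gene with 1 probe. By the probe used, the groups of Adrb3, Ucp3 and Zic1 did not overlap, so leaving out a mouse could not turn their sign. The second Ucp3 probe turned from -0.42 to 0.56 without AP mouse 2, and the second Zic1 probe from -0.12 to 0.036 under normexp. With all mice kept, Ebf2 was -0.11 in the authors' table and -0.000198 under quantile normalization, Ucp1 was 0.0051 when scaled by the median of each array, and Dio2 was 0.13 under normexp correction. With each mouse left out, the range was -0.46 to 0.30 for Ucp1, -2.79 to 2.32 for Dio2, -0.29 to 0.39 for Ebf2, -0.074 to 0.82 for Ppargc1a, -0.18 to 0.55 for Cidea, -1.44 to 5.71 for Elovl3 and -0.56 to 0.12 for Prdm16. The cause was not tested, beyond fewer mice. Nothing states that the replicate numbers pair the mice, and deviations of same-numbered mice correlated at -0.13. In the fit with the replicate block, 0 probes had an adjusted and 1226 an unadjusted p under 0.05. With 1 mouse of each number in each group, the block cannot move the differences, so the median of the 10 genes was again -0.02. With the numbers crossed in the block, added after the data were seen, the counts were 0 and 1566. A block for slide or scan could not be run with 1 of each, and normexp used the median spot signal. With 2 mice a group, the 95% intervals of the 10 genes were wide, and a p that missed the threshold does not show that a gene did not differ.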
